A study of Mus musculus with 2207 samples.

Results

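The genes described here are 10 genes of the inflammasome pathway, chosen by name out of 52636 genes of both expression tables: the inflammatory caspases Casp1, Casp4 and Casp12, the sensors Nlrp3, Aim2 and Nlrc4, the adaptor Pycard, the pore-forming protein Gsdmd, and the cytokines Il1b and Il18. Each of the 10 symbols matched 1 gene, and their values were read in 2207 single nuclei. Inflammasomes are protein complexes in the cytosol. A sensor that meets its trigger (microbial or misplaced DNA for Aim2, bacterial proteins for Nlrc4, signs of cell damage for Nlrp3) recruits the adaptor Pycard, also called ASC, which gathers and activates caspase-1. Caspase-1 then cuts the precursors of the cytokines IL-1beta and IL-18 and the protein gasdermin D, whose fragment opens pores in the cell membrane, while caspase-4 (caspase-11 in the older mouse literature) binds bacterial lipopolysaccharide and cuts gasdermin D directly. In the brain this pathway is known best from microglia, the resident macrophages.

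The nuclei came from the cortex of 14-week-old C57BL/6 mice of 6 pools, with 3 mice per genotype, and all mice had received tamoxifen at 3 weeks of age (100 mg/kg, 2 times). Ehmt1delta/+ mice carry 1 deleted copy of Ehmt1, which encodes the histone H3 lysine 9 methyltransferase GLP, and they model Kleefstra syndrome. The 730 nuclei in 96-well plates were wild type (WT, Ehmt1+/+) or Ehmt1delta/+, without any transgene. Of the 1477 nuclei in 384-well plates, those labelled WT and Ehmt1delta/+ also carried the inducible transgene Ehmt1 iTg but, per the labels, not CamKII-CreER, the tamoxifen-dependent recombinase under a promoter of forebrain excitatory neurons. The remaining 384-well pools had both, namely Ehmt1+/+; Ehmt1 iTg; CamKII-CreER (iTg) and Ehmt1delta/+; Ehmt1 iTg; CamKII-CreER (Ehmt1delta/+; iTg). The study's text describes all pools of the 384-well series as having CamKII-CreER and names WT and Ehmt1delta/+ without iTg. This differs from the labels, and the labels are followed here. Since the labels do not say which mouse a nucleus came from, each pool counts as 1 sample.

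The labels divide the nuclei into 1664 neurons, 397 oligodendrocytes and, with 68 in 96 wells and 78 in 384 wells, microglia, and each label's own markers were highest in it: the 9 microglia markers summed to 2738 to 4444 RPKM (reads per kilobase of exon, scaled to the reads of the nucleus) in microglia and to 4.16 to 13.7 RPKM in the other two labels. Neurons had a median of 323273 to 397880 reads per pool in both formats, whereas glia had 441701 to 510639 in 96 wells and 39940 to 54877 in 384 wells, so that glial detection was limited in 384 wells. Ehmt1 itself did not check the labels: its level was 18.7 RPKM in WT and 31.2 RPKM in Ehmt1delta/+ neurons of 96 wells, and it was higher in the pools labelled Ehmt1delta/+ in all 3 cell types and in both formats. In 384-well neurons Ehmt1 was at 19.5 and 31.7 RPKM in WT and Ehmt1delta/+. With the recombinase it was at 20.7 and 33.9 RPKM in iTg and Ehmt1delta/+; iTg, so it did not check the transgene pools either. Pools are therefore named by their label throughout. In 384 wells the WT nuclei had a plate code of their own, so genotype and plate code cannot be told apart there. In 96 wells, codes 2, 4 and 5 held both genotypes.

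The 3 caspase genes are neighbours on chromosome 9 and point the same way (mm10): Casp1 (5298517 to 5307265, plus strand), Casp4 (5308828 to 5336783) after a gap of 1562 bases, and Casp12 (5345430 to 5373032) after another 8646 bases, with no annotated gene between them. The bases upstream of their start sites are shown, since the co-detection of Casp1 with Casp4 concerns neighbouring genes, from RefSeq on GRCm38.p6, with CG pairs in capitals (Casp1 chr9:5298267-5298516, Casp4 chr9:5308599-5308827 and Casp12 chr9:5345226-5345429, plus strand).

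Casp1: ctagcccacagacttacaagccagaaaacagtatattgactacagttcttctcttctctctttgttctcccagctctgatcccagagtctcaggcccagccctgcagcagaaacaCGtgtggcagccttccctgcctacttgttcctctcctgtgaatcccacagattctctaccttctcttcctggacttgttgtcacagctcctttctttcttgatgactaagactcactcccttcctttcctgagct
Casp4: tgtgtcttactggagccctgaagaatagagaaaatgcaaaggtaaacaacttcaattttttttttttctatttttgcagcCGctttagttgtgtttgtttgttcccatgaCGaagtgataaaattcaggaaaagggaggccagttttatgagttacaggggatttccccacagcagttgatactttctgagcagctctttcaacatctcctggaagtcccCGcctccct
Casp12: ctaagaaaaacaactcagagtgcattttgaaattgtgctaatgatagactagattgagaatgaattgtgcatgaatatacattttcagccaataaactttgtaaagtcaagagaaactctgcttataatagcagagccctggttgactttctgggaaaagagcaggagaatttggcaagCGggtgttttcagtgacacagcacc

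These windows hold 1, 3 and 1 CG pairs, and so do the full RefSeq windows of 250 bases. The median RefSeq upstream window of 250 bases had 6. The RefSeq window of Casp4 held 2 matches, 1 in the bases shown and 1 beyond them in the annotated gene, to GGG and TTTCC with 2 bases between them, on either strand, the letters of an NF-kappaB site widened after this window had been read, against 1.41% of 32851 upstream windows of 250 bases with any match. Of the members with a window (9 of 10, Gsdmd having none), Aim2 and Pycard held GAGGAAGT, a PU.1-type motif (PU.1 is the transcription factor of the macrophage lineage), which 2.44% of all windows hold on either strand. It is shown in capitals in both (Aim2 chr1:173420354-173420570 on the plus strand, Pycard chr7:127993868-127994117 on the minus strand, where the motif reads in reverse).

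Aim2: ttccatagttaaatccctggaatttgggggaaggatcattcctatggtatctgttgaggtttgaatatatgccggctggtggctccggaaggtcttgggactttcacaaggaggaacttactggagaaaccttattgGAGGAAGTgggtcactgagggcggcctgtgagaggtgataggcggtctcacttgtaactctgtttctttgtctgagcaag
Pycard: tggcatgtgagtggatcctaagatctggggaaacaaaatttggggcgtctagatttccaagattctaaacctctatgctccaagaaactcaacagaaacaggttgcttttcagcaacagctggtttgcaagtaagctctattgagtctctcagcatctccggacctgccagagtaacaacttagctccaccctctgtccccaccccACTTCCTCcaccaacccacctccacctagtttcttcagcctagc

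No window of a member held GAAA repeated after 2 bases (interferon response element, 2.98% of windows) or TGANTCA (AP-1, 6.75%), and TATAAA (12.4%) was found in Il1b and Il18. A match describes these letters and is not evidence of binding.

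Across the 3 cell types the members fell into groups. Gsdmd, Nlrp3, Aim2, Pycard, Casp1 and Casp4 were highest in microglia, with ranges over the 6 pools above those of neurons and oligodendrocytes (6 of 10 members, against 6.16% of 33209 genes with any such range). Gsdmd had the highest microglial level, 82.5 to 158.6 RPKM per pool, against 0.00866 to 0.167 RPKM in neurons and 0 in every oligodendrocyte. Nlrp3 was at 32.2 to 62.4 RPKM in microglia, 0.00270 to 0.109 RPKM in neurons and likewise 0 in oligodendrocytes. Both were above 0 in most microglia, Gsdmd in 100% of 68 and 96.2% of 78 and Nlrp3 in 86.8% and 66.7%, and each in 13 of 1664 neurons.

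**Figure D1:**
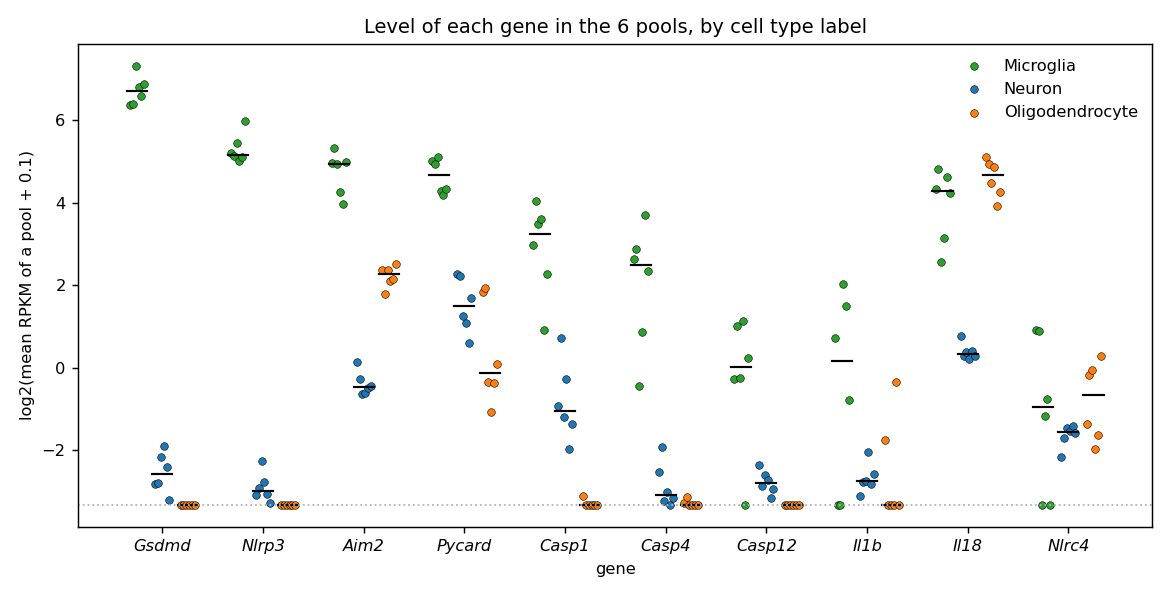
Mean level of each of the 10 genes per pool, as log2(mean RPKM + 0.1), in nuclei labelled neuron, microglia and oligodendrocyte; each point is 1 of 6 pools, bars are medians over pools and the dotted line is the level of a mean of 0. Gsdmd and Nlrp3 are separated most widely between microglia and the other two cell types. Il18 has its highest median in oligodendrocytes, with a range that overlaps that of microglia, and Nlrc4 overlaps in all 3.

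Aim2 had 3 separate ranges: 15.5 to 39.9 RPKM in microglia, 3.38 to 5.58 RPKM in oligodendrocytes and 0.546 to 1.0 RPKM in neurons. Pycard was at 18.1 to 34.4 RPKM in microglia, while its ranges in neurons (1.43 to 4.76 RPKM) and oligodendrocytes (0.379 to 3.70 RPKM) overlapped. Il18 was the member that oligodendrocytes expressed most: 34.05 and 30.4 RPKM in WT and Ehmt1delta/+ nuclei of 96 wells, and 22.1, 28.9, 14.99 and 18.9 RPKM in WT, Ehmt1delta/+, iTg and Ehmt1delta/+; iTg nuclei of 384 wells. Those levels overlapped the microglial ones (5.81 to 28.2 RPKM), and both lay above the neuronal 1.07 to 1.59 RPKM. Of the exonic bases of Il18, 14.6% lie within Bco2 on the opposite strand, which was at 17.3 to 36.4 RPKM in microglia. Il1b, the other cytokine, was above 0 in 6 microglia, 2 oligodendrocytes and 22 neurons. Nlrc4 was low everywhere, with medians over pools of 0.535, 0.418 and 0.240 RPKM in oligodendrocytes, microglia and neurons and overlapping ranges.

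Most members thus came together in single microglia and seldom in single neurons. The median microglial nucleus of either 96-well pool held 6 of the 10 genes above 0, and each of those 68 microglia held at least 4. In the shallower 384-well microglia the median was 3 to 4. Neurons had medians of 2 (96 wells) and 1 (384 wells), for the most part Pycard and Aim2, and oligodendrocytes had 2 and 0 to 1.

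The genes most like Gsdmd over the 18 means of pool and cell type were Myo1f, Fgd2, Lrrk1, Siglech and Arhgap30 (Pearson r of 0.998 each, over log2 levels of 33209 genes), and Nlrp3 had r = 0.998 with Gsdmd. Casp1 was most like Il1rl2, an IL-36 receptor (r = 0.974), followed by Prkch, Cdk6, Blnk and Rgs2 (0.966 to 0.969). These 18 means come from 6 pools and 3 cell types, so r mostly reflects the difference between cell types. Its values with other members were 0.909 for Pycard, 0.830 for Casp4, -0.04 for Il18 and -0.05 for Nlrc4.

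By the log2 ratio of pool means (pseudocount 0.1 RPKM), Casp1 was the member that differed most between WT and Ehmt1delta/+ neurons in both formats. It was above 0 in 9.09% of WT neurons and 21.5% of Ehmt1delta/+ neurons of 96 wells (exact 95% intervals 5.85 to 13.3% and 16.7 to 26.95%), and 5.26%, 10.8%, 2.55% and 4.29% in WT, Ehmt1delta/+, iTg and Ehmt1delta/+; iTg neurons of 384 wells (2.98 to 8.53%, 7.54 to 14.8%, 1.03 to 5.17% and 2.23 to 7.37%). These intervals, like all those below, cover counting error only, and the share of all genes with intervals apart was not worked out. A ratio of at least 2 between the Ehmt1delta/+ and WT shares in both formats was found for 5 of 23853 genes (0.021%), Casp1 among them. Casp1 was among those genes only through its Ehmt1delta/+ shares, since the filter asks for 10% in 1 genotype in both formats and WT did not reach it, so the count describes these pools and supports nothing. Il1b also had such a ratio, from 2 and 6 nuclei in either format, but was too rare to pass the filter.

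The pool means of Casp1 in neurons were 0.425 and 1.56 RPKM in WT and Ehmt1delta/+ nuclei of 96 wells and 0.334 and 0.721 RPKM in those of 384 wells, which gave log2 ratios of 1.66 and 0.92. Having passed the filter through Ehmt1delta/+ alone, the group where it was high, Casp1 had an estimate of 1.29 over both formats (SE 0.22), with p = 0.00601 and an adjusted p of 0.461 by limma with Benjamini-Hochberg adjustment over 23853 genes, of which 0 were called (0%) and 2428 had an unadjusted p under 0.05. The fit had 4 pools and 1 residual degree of freedom. Other cell types' markers also differed between these neurons: those of oligodendrocyte precursors summed to 0.125 and 4.58 RPKM in WT and Ehmt1delta/+ neurons of 96 wells and to 0.168 and 0.115 RPKM in 384 wells, and those of astrocytes to 6.35 and 3.05 RPKM and to 2.55 and 2.28 RPKM. Their part in the Casp1 values was not tested. Within plate codes 2, 4 and 5, WT neurons had Casp1 in 4.76%, 14.8% and 7.69%, and Ehmt1delta/+ neurons in 23.3%, 22.4% and 16.9%.

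With nuclei of both formats thinned to 48585 reads and 1 shallower Ehmt1delta/+; iTg neuron left out, the Casp1 shares were 2.63% and 8.12% in 96 wells and 1.62%, 3.90%, 0.744% and 1.61% in 384 wells in the same pool order. The iTg and Ehmt1delta/+; iTg pools were thus below the WT and Ehmt1delta/+ pools, respectively. Casp1 was 2-fold lower in Ehmt1delta/+; iTg than in Ehmt1delta/+ neurons (0.290 against 0.721 RPKM, log2 ratio -1.07), as were 0.692% of 24992 genes. Casp1 was among those genes only through its share in the Ehmt1delta/+ pool, where it was high, so this percentage is a description and supports nothing. The log2 ratio of Casp1 was -0.42 with a pseudocount of 1 in place of 0.1. In iTg against WT neurons it was -0.77 (0.155 against 0.334 RPKM); 1.6% of genes were at least 2-fold lower there and no member was with the pseudocount of 0.1, whereas with 0.01 the ratios of Casp1, Nlrp3 and Casp12 were -1.06, -1.95 and -1.73. The median of all genes in these contrasts was 0.16 and -0.09. With 1 pool per genotype neither ratio has a replicate check.

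**Figure D2:**
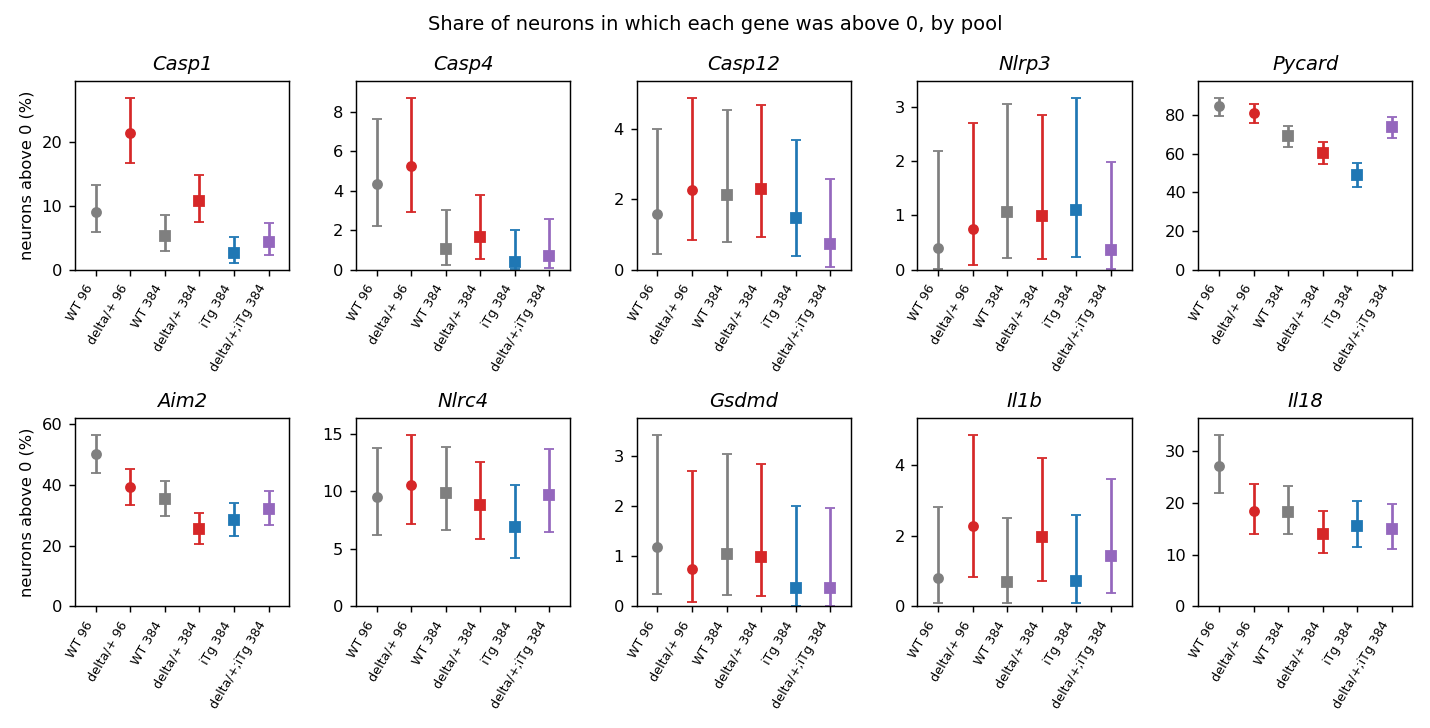
Share of neurons above 0 (percent) for each of the 10 genes in the 6 pools, with exact 95% intervals for counting error. The Casp1 share of Ehmt1delta/+ neurons in 96 wells lies above that of WT without overlap of intervals, while Pycard is lowest in iTg neurons. The share of all genes with intervals apart was not worked out.

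Casp1-positive neurons were in the main excitatory: 69 of 411 excitatory neurons (16.8%) and 10 inhibitory ones (9.52%) in 96 wells, and 57 of 913 (6.24%) and 10 (4.39%) in 384 wells, with overlapping intervals in both formats. Within the excitatory class, neurons with Rorb above 0 (a layer 4 marker) had a Casp1 share of 14.0% in WT and 34.9% in Ehmt1delta/+ nuclei of 96 wells. Those without Rorb had 5.95% and 10.5%. In 384 wells the share in Rorb-positive neurons was 8.74%, 15%, 1.15% and 5.94% in WT, Ehmt1delta/+, iTg and Ehmt1delta/+; iTg, and without Rorb it was 2.80%, 10%, 3.01% and 2.33%. The share was higher in Rorb-positive than in Rorb-negative neurons in 5 of 6 pools, all but iTg, and the intervals of both were apart only in Ehmt1delta/+ neurons of 96 wells (25.9 to 44.8% and 5.56 to 17.7%). In inhibitory neurons the shares were 4.84% and 16.3% in 96 wells (3 of 62 and 7 of 43). They were 4.11%, 3.85%, 3.77% and 6% in 384 wells (3 of 73, 2 of 52, 2 of 53 and 3 of 50). The intervals overlapped in both formats.

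**Figure D3:**
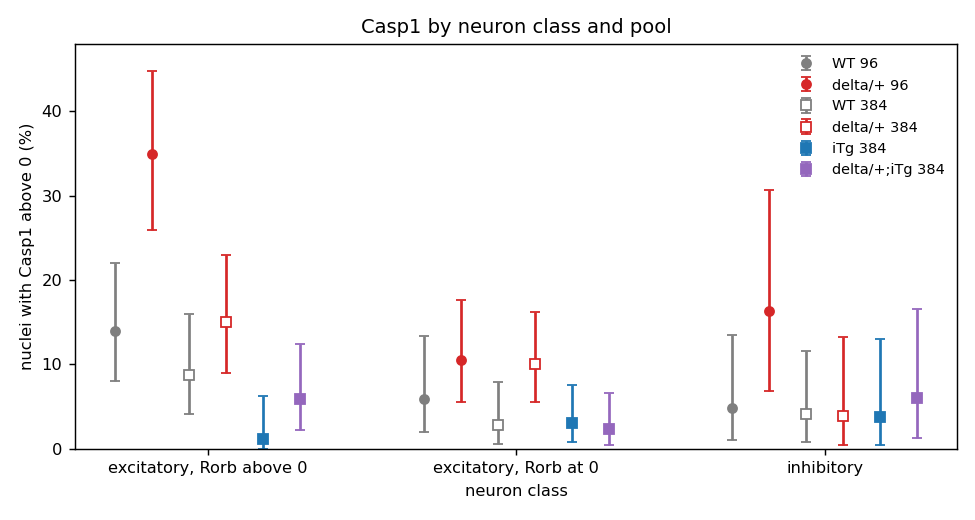
Share of neurons with Casp1 above 0 (percent, with exact 95% intervals) in Rorb-positive excitatory, Rorb-negative excitatory and inhibitory neurons of the 6 pools. Rorb-positive excitatory neurons had a higher share than Rorb-negative ones in 5 of 6 pools, up to 34.9%, and a share of 1.15% in the iTg pool.

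Casp4, the lipopolysaccharide-binding caspase next to Casp1, was rare in neurons. It was above 0 in 11 WT and 14 Ehmt1delta/+ neurons of 96 wells (4.35% and 5.28%), and in 3, 5, 1 and 2 of the WT, Ehmt1delta/+, iTg and Ehmt1delta/+; iTg neurons of 384 wells (1.05%, 1.63%, 0.364% and 0.714%). The intervals of WT and Ehmt1delta/+ overlapped in both formats, and Casp4 did not pass the filter of the fit. Few reads were behind these values: the median positive neuron had 1 read of Casp4, 10 of 36 had less than 1, and 13.3% of all positive Casp4 values were not whole reads.

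Neurons with Casp1 had Casp4 more often than those without. In 96 wells 15 of 80 Casp1-positive neurons had Casp4 (18.8%, interval 10.9 to 29%) against 10 of 438 others (2.28%, 1.1 to 4.16%). In 384 wells it was 6 of 67 (8.96%, 3.36 to 18.5%) against 5 of 1079 (0.463%, 0.151 to 1.08%). The share was higher with Casp1 in 5 of 6 pools: 21.7% (5 of 23) against 2.61% in WT and 17.5% (10 of 57) against 1.92% in Ehmt1delta/+ neurons of 96 wells, and 6.67% (1 of 15) against 0.741%, 12.1% (4 of 33) against 0.366% and 8.33% (1 of 12) against 0.373% in WT, Ehmt1delta/+ and Ehmt1delta/+; iTg neurons of 384 wells. In iTg neurons it was 0 of 7 against 0.373%.

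The difference was present in both formats with at least 1 whole read of each gene (13 of 80 against 4 of 438, and 6 of 67 against 3 of 1079) and with at least 2 reads (8 of 58 against 3 of 460, and 3 of 43 against 1 of 1103). Depth differed little in 96 wells, with medians of 356813 reads with and 348455 without Casp1, and more in 384 wells, with 400314 and 357439.

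Microglial RNA in these neurons was measured beside it. Any of the 5 rare microglia markers (Ctss, Tmem119, C1qa, C1qb and C1qc, each above 0 in under 5% of neurons) was found in 9 of 80 Casp1-positive and 46 of 438 other neurons of 96 wells (11.3% and 10.5%), and in 2 of 67 and 32 of 1079 of 384 wells (2.99% and 2.97%). The 9 microglia markers summed to 10.9 against 12 RPKM and to 6.94 against 8.19 RPKM. Without all neurons that had a rare marker, Casp4 was found in 12 of 71 against 10 of 392 and in 6 of 65 against 5 of 1047. Without neurons that had 2 or more of the 9 markers, which left 10 and 17 neurons with Casp1, it was 1 of 10 against 0 of 40 and 1 of 17 against 0.898%, and the intervals overlapped in both formats.

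**Figure D4:**
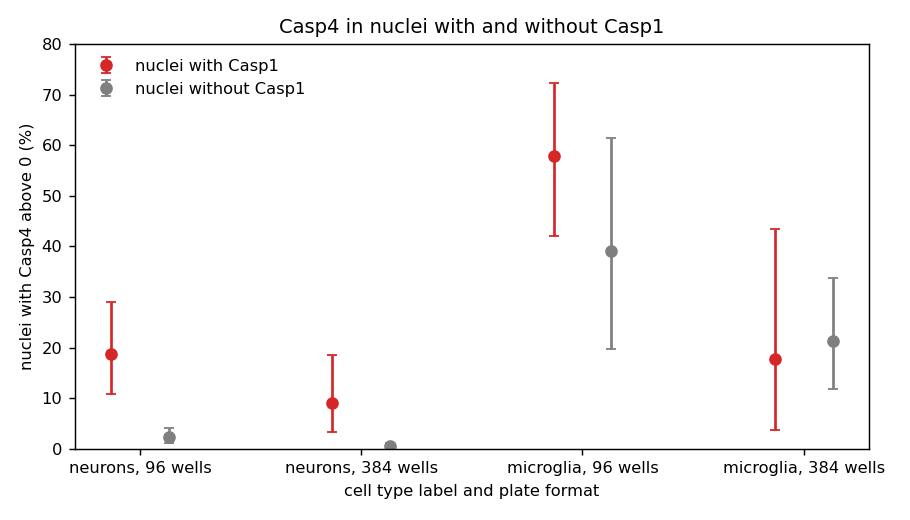
Share of nuclei with Casp4 above 0 (percent, with exact 95% intervals) among nuclei with and without Casp1, for neurons and microglia of each plate format. In neurons the intervals are apart in both formats (18.8 against 2.28%, and 8.96 against 0.463%), and in microglia they overlap.

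Of the 45 pairs of members, Casp1 with Casp4 was the only one whose intervals were apart in neurons of 96 wells. In 384 wells it was 1 of 4 such pairs, the others being Casp4 with Pycard (11 of 11 against 62.8%), Pycard with Aim2 (33.98 against 23.9%) and Pycard with Nlrc4 (10.6 against 5.69%). Neurons with Pycard were deeper there (medians of 398897 and 302442 reads), and the part of depth in these pairs was not tested. How often pairs of other genes have intervals apart was not worked out, so these counts describe the members only. In microglia and oligodendrocytes no pair had intervals apart: Casp4 was in 26 of 45 microglia with Casp1 and 9 of 23 without in 96 wells, and in 3 of 17 and 13 of 61 in 384 wells.

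Casp12, which mouse retains as an intact gene and which lies farthest from Casp1, was above 0 in 4 and 6 neurons of 96 wells and in 6, 7, 4 and 2 of 384 wells. Of these 29 neurons 28 were excitatory and 1 inhibitory, while 79.6% of all neurons were excitatory. Its shares were 2.19% of excitatory and 0.952% of inhibitory neurons in 96 wells and 2.08% and 0% in 384 wells, where 0 allows up to 1.32% (3 counts of the nuclei read, with an exact upper bound of 1.6%), and the intervals overlapped. Casp12 was found in 3 of 80 neurons with Casp1 and 7 of 438 without (96 wells) and in 3 of 67 and 16 of 1079 (384 wells), again with overlap. No oligodendrocyte had it (0% in either format, which allows up to 2.08% and 1.19%).

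Pycard was the member found in most neurons: 84.6% of WT and 81.1% of Ehmt1delta/+ neurons in 96 wells, and 69.1%, 60.5%, 49.1% and 73.9% of WT, Ehmt1delta/+, iTg and Ehmt1delta/+; iTg neurons in 384 wells. Its level did not pass the test between Ehmt1delta/+ and WT (log2 ratios -0.05 and -0.15, limma adjusted p = 0.782 with Benjamini-Hochberg adjustment). The iTg share (interval 43 to 55.2%) lay below that of Ehmt1delta/+; iTg (68.4 to 79%), which was read on the same plate code and at a lower median depth. The corresponding levels were 1.43 and 3.14 RPKM, a log2 ratio of 1.09, and 10.3% of 24992 genes were at least 2-fold higher in this contrast, with a median of 0.22 over all genes. With a pseudocount of 1 the ratio was 0.77.

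Pycard was not at one share in all cell types, since 34.7% of 96-well oligodendrocytes had it at greater depth than neurons. Of its 3800 exonic bases 485 lie in exons of Gm45205 on the opposite strand, whose level was 2.58 RPKM in 96-well neurons with Pycard and 0.138 RPKM in those without, and 25.2% of positive Pycard values were not whole reads. How much of the neuronal value belongs to Gm45205 was not tested.

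Aim2, the DNA sensor, was above 0 in 50.2% and 39.2% of WT and Ehmt1delta/+ neurons in 96 wells and in 35.4%, 25.5%, 28.4% and 32.1% of WT, Ehmt1delta/+, iTg and Ehmt1delta/+; iTg neurons in 384 wells. With at least 2 reads the shares were 22.5% and 20%, and 17.2%, 17.3%, 18.5% and 16.4%. The lower share in Ehmt1delta/+ neurons of 384 wells was thus among neurons with under 2 reads. The levels gave log2 ratios of -0.40 and 0.02 (limma adjusted p = 0.708 with Benjamini-Hochberg adjustment). In 96 wells inhibitory neurons had Aim2 more often than excitatory ones, 61.9% (51.9 to 71.2%) against 39.9% (35.1 to 44.8%), and in 384 wells both were at 30.3 and 30.2%. Oligodendrocytes had Aim2 in 36.1% and 26.5% of nuclei, with intervals that overlapped those of all neurons (44.6% and 30.3%), although their RPKM levels were apart. Of 3501 exonic bases of Aim2, 95 lie within Cadm3 on the other strand, at 22.7 to 31.5 RPKM in neurons.

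Nlrc4, the sensor of flagellin and secretion proteins, was found in 9.49% and 10.6% of WT and Ehmt1delta/+ neurons of 96 wells and in 9.82%, 8.82%, 6.91% and 9.64% of WT, Ehmt1delta/+, iTg and Ehmt1delta/+; iTg neurons of 384 wells, a narrow range with overlapping intervals. Excitatory neurons had it at 11.2% in 96 wells and 10.1% in 384 wells (8.31 to 14.6% and 8.20 to 12.2%), and inhibitory neurons at 4.76% and 3.95% (1.56 to 10.8% and 1.82 to 7.36%). The intervals were apart in 384 wells. Only 5 microglia had Nlrc4, 1 WT nucleus of 96 wells holding 54.8% of their reads, and 28 oligodendrocytes had it. The share of oligodendrocytes in 96 wells was 9.72% (5.42 to 15.8%), so the neuronal share of 10.04% was not above that of another cell type.

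Nlrp3 was found in 1 and 2 neurons of 96 wells and in 3, 3, 3 and 1 of 384 wells, and Gsdmd in 3 and 2 and in 3, 3, 1 and 1. Mean microglial RNA was higher in neurons with either gene. The 9 markers summed to 53.7 RPKM in the 13 neurons with Nlrp3 and 8.93 RPKM in those without, and to 50.9 and 8.95 RPKM for Gsdmd. Most of these neurons had none of the rare microglia markers. Among neurons without a rare marker, Nlrp3 was in 0 and 2 of 96 wells and in 3, 2, 3 and 1 of 384 wells. Gsdmd was in 2 and 1 and in 3, 2, 1 and 1 of them. In the Ehmt1delta/+ pool of 384 wells 1 neuron had all 9 markers and both genes, and it is part of both means. The part of microglial RNA in these values was not tested further. Gsdmd was at 0.167 and 0.00866 RPKM in Ehmt1delta/+ and Ehmt1delta/+; iTg neurons, a log2 ratio of -1.30 that rests on 3 nuclei and 1 nucleus and was -0.55 without the highest nucleus of each pool.

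Il1b was above 0 in 2 and 6 WT and Ehmt1delta/+ neurons of 96 wells (0.791% and 2.26%) and in 2, 6, 2 and 4 WT, Ehmt1delta/+, iTg and Ehmt1delta/+; iTg neurons of 384 wells (0.702%, 1.96%, 0.727% and 1.43%). The counts were higher with the Ehmt1delta/+ label in every pairing, and all the intervals overlapped. With at least 2 reads they were 0 and 1 in 96 wells and 2, 6, 1 and 3 in 384 wells. All 22 neurons were excitatory, and no inhibitory neuron had Il1b, which allows up to 2.86% in 96 wells and 1.32% in 384 wells. Casp1 was found in 1 of 8 and 2 of 14 of these neurons. Of the 1907 exonic bases of Il1b, 521 lie within the antisense gene Il1bos, which averaged 0.769 and 0.197 RPKM in neurons with Il1b and 0.0217 and 0.0111 RPKM in those without.

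Il18 was in 27.3% and 18.5% of WT and Ehmt1delta/+ neurons of 96 wells and in 18.2%, 14.1%, 15.6% and 15% of WT, Ehmt1delta/+, iTg and Ehmt1delta/+; iTg neurons of 384 wells. Its levels of 1.59 and 1.11 RPKM (96 wells) and 1.2 and 1.07 RPKM (384 wells) gave log2 ratios of -0.48 and -0.16, the opposite sign to Casp1, and did not pass the test (estimate -0.32, SE 0.13, limma adjusted p = 0.538 with Benjamini-Hochberg adjustment). Among neurons with Casp1, 12.5% had Il18 against 24.7% of those without in 96 wells and 13.4% against 15.8% in 384 wells, with overlapping intervals.

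Microglia passed 8 members to the fit, and none was called among 13686 genes (0 genes called, 0%, and 1.93% with an unadjusted p under 0.05, no member among them). Casp1 was above 0 in 50% of 36 WT and 84.4% of 32 Ehmt1delta/+ microglia of 96 wells (32.9 to 67.1% and 67.2 to 94.7%), at 7.77 and 16.4 RPKM. In 384 wells the share went the other way, 43.8% of 16 and 26.3% of 19, while the levels were 11 and 12.1 RPKM, and iTg and Ehmt1delta/+; iTg microglia were at 10% and 13% (1.79 and 4.70 RPKM). Within codes 2, 4 and 5 of 96 wells it was 71.4%, 37.5% and 37.5% in WT and 83.3%, 66.7% and 100% in Ehmt1delta/+ microglia, of 6 to 12 nuclei each. The limma estimate of the log2 ratio was 0.60 (adjusted p = 0.920 with Benjamini-Hochberg adjustment).

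Markers of perivascular macrophages, another macrophage type of the brain, moved with the label in microglia: their sum was 43.5 and 133.4 RPKM in WT and Ehmt1delta/+ microglia of 96 wells and 0.158, 52.5, 0.0909 and 4.96 RPKM in the 384-well pools in the order used above. Neuronal markers summed to 75.6 and 17.97 RPKM in WT and Ehmt1delta/+ microglia of 96 wells and to 7.52, 6.19, 1.49 and 14.1 RPKM in 384 wells. The part of either in the microglial values was not tested.

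Casp4, Casp12 and Il18 passed the filter in microglia through Ehmt1delta/+ alone, so their ratios and estimates are descriptions. Their shares were higher in Ehmt1delta/+ than in WT in both formats, except for Il18 in 96 wells (88.9% in WT and 84.4% in Ehmt1delta/+). Casp12 had a log2 ratio of at least 1 in both formats (0.724 and 1.9 RPKM, and 0.746 and 2.09 RPKM), as were 2.12% of genes. It rested on 3 of 36, 5 of 32, 1 of 16 and 2 of 19 nuclei, and limma gave an estimate of 1.33 (SE 0.45, adjusted p = 0.920 with Benjamini-Hochberg adjustment). Casp4 was in 47.2% and 56.3% of WT and Ehmt1delta/+ microglia of 96 wells (6.06 and 7.24 RPKM) and in 1, 2, 4 and 9 nuclei of the 384-well pools (0.634, 1.73, 12.8 and 5.01 RPKM). Its log2 ratios of 0.25 and 1.32 and those of Il18 (0.50 and 0.57) were positive in both formats. Nlrp3, Pycard and Aim2 had ratios of -0.07 and -0.43, of -0.07 and -0.84, and of 0.37 and -0.68, and Gsdmd of 0.02 and -0.51. The adjusted p-values of the tested members ranged from 0.920 to 0.978 by limma with Benjamini-Hochberg adjustment.

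**Figure D5:**
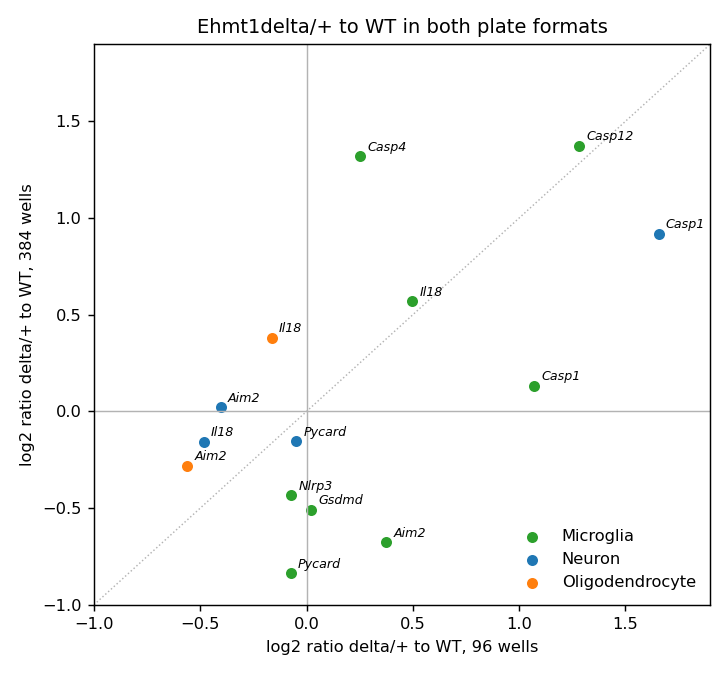
Log2 ratio of Ehmt1delta/+ to WT pool means (pseudocount 0.1 RPKM) in 96 wells (horizontal) and 384 wells (vertical) for each member that passed the filter, in neurons, microglia and oligodendrocytes. Casp1 in neurons (1.66 and 0.92) and Casp12 in microglia (1.28 and 1.37), which both passed the filter through Ehmt1delta/+ alone, lie farthest to the upper right.

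In oligodendrocytes Il18 was the member seen in most nuclei: 90.4% and 94.4% of WT and Ehmt1delta/+ nuclei of 96 wells and 46.4%, 50%, 29.6% and 44.8% of WT, Ehmt1delta/+, iTg and Ehmt1delta/+; iTg nuclei of 384 wells. Thinned to 48585 reads, these became 65.2% and 68.6%, and 52.9%, 56%, 32.4% and 49.3%, for the 96-well nuclei and for the 39 of 69, 24 of 46, 49 of 71 and 42 of 67 nuclei of 384 wells that had that many reads. The iTg share was the lowest in both sets. Il18 and Aim2 passed the filter and neither was called, nor any of 12832 genes (0 genes called, 0%, and 606 with an unadjusted p under 0.05). Their log2 ratios were -0.16 and 0.38 for Il18 and -0.56 and -0.28 for Aim2 (limma adjusted p = 0.975 and 0.879 with Benjamini-Hochberg adjustment). Casp1 was seen in 1 oligodendrocyte of 96 wells (0.694%) and in none of 384 wells, which allows up to 1.19%, against 15.4% and 5.85% of neurons. Casp4 was seen in 3 and 0.

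Of 53 further genes of the pathway, chosen with earlier results of these data known, 24 were tested in neurons and 0 were called. Their median log2 ratio was -0.01, against -0.03 over all genes tested, and 4 were higher and 5 lower in Ehmt1delta/+ in both formats (16.7% and 20.8%, against 23.6% and 35.03% of all genes). The highest by the smaller of both ratios were P2rx7, the ATP-gated channel upstream of NLRP3 (0.95 and 0.22), Gsdme, another gasdermin (0.32 and 0.14), and Panx1, a channel that releases ATP (0.03 and 0.03). Ninj1, which ruptures the membrane after gasdermin pores form, was lowest: 1.36 and 0.746 RPKM in WT and Ehmt1delta/+ neurons of 96 wells and 2.51 and 1.65 RPKM in 384 wells (log2 ratios -0.78 and -0.58, SE 0.11, p = 0.00577 and adjusted p = 0.461 by limma with Benjamini-Hochberg adjustment). Ninj1 was also 2.19 and 1.26 RPKM in iTg and Ehmt1delta/+; iTg neurons. The next lowest were Nfkbia, the inhibitor of NF-kappaB (-0.38 and -0.08), and Irak4, a kinase of IL-1 receptor signalling (-0.02 and -0.17).

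In microglia 36 of the 53 were tested and 0 called, with 19 higher and 4 lower in both formats (52.8% and 11.1%, against 25.1% and 25.7% of all genes) and a median log2 ratio of 0.31 against -0.02. Genes of the list could pass the filter through Ehmt1delta/+ alone, and the list was chosen with earlier results known. These counts are therefore descriptions. The perivascular macrophage markers given above moved with the same label, and their part in these counts was not tested. In oligodendrocytes 22 were tested, 0 were called and the median was 0.04. The ranges of 20 of the 53 pathway genes were higher in microglia than in the other cell types, against the 6.16% of all genes given above.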

How the data were processed

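Per the study's methods, single nuclei sorted by DAPI were sequenced by RamDA-seq. The authors mapped reads with HISAT2 2.0.4 to mm10, counted them with featureCounts (Subread 1.5.0) at default settings, removed poor nuclei, assigned cell types by clustering and deposited RPKM values. Default settings use no strand and give no fractions of reads, yet some values were not whole reads, so the settings behind these values are not known, and reads of overlapping genes on opposite strands may not have been separated. Reads per nucleus were worked out from the steps between low RPKM values. Coordinates, overlaps and exon lengths are those of GENCODE M21 (mm10), except the lengths of Nlrc4 and Gsdmd, which came from these steps.

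A gene was detected with a value above 0. Shares have exact Clopper-Pearson 95% intervals, and the limit printed beside a share of 0 is 3 counts of the nuclei read. Nuclei are not replicates, so RPKM was averaged per pool and cell type, and limma 3.58.1 (R 4.3.3) compared Ehmt1delta/+ with WT on log2(RPKM + 0.1) with plate format as a block, for genes above 0 in at least 10% of nuclei of a genotype in both formats, with Benjamini-Hochberg adjustment at 0.05 over all genes tested. A fold change on this scale understates the change of low genes. Excitatory neurons had more Slc17a7 than Gad1 and inhibitory neurons the reverse. Named genes were all 10 members, the 3 highest and 3 lowest pathway genes, and the 5 most like Casp1 and Gsdmd. The members and lists were chosen with earlier results of these data known. The results of 1 further gene list are not reported here. Further steps used SciPy 1.17.1, pandas 2.3.3 and numpy 2.4.6 in Python 3.11.15, and were tested on simulated data.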

Additional observations from a re-analysis of the deposited data

Results flagged for a closer look

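The genotype difference had opposite signs in the plate formats for 2 rarely detected members, and the difference between formats was not tested. Il1b in microglia, as mean RPKM of Ehmt1delta/+ minus WT, was -1.55 in 96 wells (2 of 36 WT nuclei and 0 of 32 Ehmt1delta/+ nuclei positive) and 4.0 in 384 wells (0 of 16 and 2 of 19). Nlrc4 in oligodendrocytes was 0.494 in 96 wells (6 of 73 and 8 of 71) and -0.701 in 384 wells (3 of 69 and 1 of 46).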

How the results depend on the processing

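No paired analysis was possible because the labels number no replicates and tie no nucleus to a mouse. No block finer than the plate format, which the fit already holds, could be made in both formats. Some plate codes of 96 wells held both genotypes, but in 384 wells the WT nuclei had a code of their own. The fit did not use plate code as a block. The counts of 0 genes called in neurons and microglia held under every pseudocount, filter and variance setting tried. In oligodendrocytes 6 genes were called with the mean over nuclei of log2(RPKM + 1) and 2 with a variance trend, no member among them. The difference of Casp4 between neurons with and without Casp1 was 16.5 percentage points in 96 wells and 8.49 in 384 wells, and became 10 and 4.98, with overlapping intervals, without neurons that had 2 or more of the 9 microglia markers, which left only 10 and 17 neurons with Casp1. Leaving out neurons with a rare microglia marker, requiring whole reads and thinning both formats to the same reads were chosen after seeing the data. The Casp1 share difference in 96-well neurons was 12.4 points, and 5.50 after that thinning. The Aim2 difference in 384-well neurons was 0.127 points with at least 2 reads. With 1 pool per genotype and format, leaving out either format gave values with no test, namely the log2 ratios of the other format. Shallow 384-well glia limit detection.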
